A study of Mus musculus with 6 samples.

Results

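Cytosolic ribosomal proteins are the proteins of the ribosomes that translate nuclear-encoded messages, and their genes were examined here in double-positive thymocytes of mice lacking the microRNA genes miR-181a1 and miR-181b1. A gene was included by its symbol, Rps or Rpl with a number, Rplp with a number, or Rpsa. The rule matched 82 rows of the authors' table, which gave 80 genes of 37867 gene models, 31 of the small and 49 of the large subunit. Where a symbol had several models, the one with the highest summed level was kept. The name rule also takes in paralogs with a restricted or partly separate role, such as Rpl3l, Rpl7l1, Rpl22l1, Rpl39l and Rps27l. Rplp0 and Rpl10l were not analysed here.

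The samples were 3 sorted CD4+CD8+ thymocyte populations from mir181a1/b1 knockout mice and 3 from wild type mice, all of the C57bl6 strain and with no treatment given in the labels. Sorting reached a purity that the labels put above 95%, and RNA was taken up with Trizol or a column kit without a record of which library had which. The knockout is given as a change of the mouse genotype, so it is not limited by the labels to thymocytes, and age, sex and the number of animals are not given. The authors' table held 1 value per genotype, in FPKM, which is fragments per kilobase of transcript, scaled to the number of mapped fragments. Values of single populations and read counts were not analysed here, so the depth is unknown and no SD is given. Where a gene has a pair of values, the knockout is given first. Each error is the standard error (SE) of the log2 ratio that follows from the deposited test statistic, and a gene is called changed at a deposited q under 0.05.

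A ribosome is assembled from a small subunit, which binds the message and reads its codons, and a large subunit, which joins amino acids and releases the chain through an exit tunnel. The proteins are used in equal numbers, 1 copy each per ribosome apart from the stalk proteins, and their messages are among the most abundant of a dividing cell. Most of these messages start with a short run of pyrimidines, the 5′ terminal oligopyrimidine (TOP) tract, through which growth signals set how strongly they are translated. Thymocytes pass through fast division before they become small resting double-positive cells. Inherited loss of a single ribosomal protein gene, such as Rps19, causes Diamond-Blackfan anaemia, and Rpl22 is needed for the development of alphabeta T cells in mice.

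The microRNAs made from the deleted genes and a few members' own sequences are shown first, because the sequence of the messages recurs in the results. A microRNA lowers its targets mainly by pairing of its seed, bases 2 to 8, with sites in the 3′ UTR. The capitals mark the seed, in RefSeq sequences of build GRCm38.p6.
miR-181a-5p: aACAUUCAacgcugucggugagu
miR-181b-5p: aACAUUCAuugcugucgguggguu
Both mature sequences lie on chromosome 1, at chr1:137966468-137966490 and chr1:137966650-137966673 on the plus strand, and share the seed ACAUUCA. The matching letters in a message, TGAATGT, were searched on the sense strand of the 3′ UTR of 1 GENCODE M21 reference transcript per gene. They were found in 6 of 80 members (7.5%) and in 2854 of 19983 other coding genes (14.3%). Members had short 3′ UTRs, with a median of 88 bases against 755 in the other genes, and 46 of them had fewer than 100 bases. Per kilobase of 3′ UTR there were 0.208 matches in the members and 0.148 in the other genes. The members' rate rests on 6 matches, all in reference 3′ UTRs of 875 to 3167 bases. It also counts the 3′ UTRs of Rps15a and Rps20, of 4728 and 3167 bases, which may not be expressed. The difference in rates was not tested.

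The 5 matches in reference transcripts that fit the model's span are shown with their flanks, the match in capitals.
Rpl5: catgccagacaTGAATGTacataggaaaat
Rpl21: tccacatggtgTGAATGTgggtacgcatgt
Rpl22: ttgtatttgaaTGAATGTtgatcacttttt
Rps24: gagtcttcatgTGAATGTtgacaattgaat
Rpsa: actgctgccccTGAATGTcctggaattcaa
Rpl5 and Rpsa were lower in the knockout, with log2 ratios of knockout over wild type of -0.78 (SE 0.25) and -1.98 (SE 0.47). Rpl21, Rpl22 and Rps24 did not pass the test, at -0.53 (SE 0.36), -0.62 (SE 0.28) and -0.06 (SE 0.27). The match in Rps20 (-1.86, SE 0.27) lay in a reference isoform longer than 1.2 times its model and may not be expressed. The other 5 matches lay in reference 3′ UTRs of 875 to 1647 bases. A model's span includes introns, so a fit to it does not show that these 3′ UTRs are expressed. None of the 6 genes with a match was called higher in the knockout, and neither was any other of the 78 tested members. Of all tested models 1.79% were called higher. Called lower were 52.6% of the tested members and 15.3% of all tested models, so the counts are no result about the matches.

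The sequence around the start of the message was read from RefSeq promoters of GRCm38.p6. It was taken as the 15 bases before and the 15 bases from the annotated start, with the longest run of C or T on the sense strand. The examples below are the longest runs, followed by the member with the lowest called ratio and the member with the highest ratio, with the longest run in capitals.
Rpl7a: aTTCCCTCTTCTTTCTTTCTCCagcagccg
Rpl27a: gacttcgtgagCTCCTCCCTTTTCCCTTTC
Rpl35: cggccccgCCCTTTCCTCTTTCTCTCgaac
Rpl15: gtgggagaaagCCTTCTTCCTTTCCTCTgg
Rps21: taccgaggacccgCCCTCCTgcccaatagt
Rps24: tccggcgccgtagccatcatggtgagTCTC
These windows lie at chr2:26910792-26910821 (plus), chr7:109519180-109519209 (plus), chr2:39005117-39005146 (minus), chr14:18270972-18271001 (minus), chr2:180257364-180257393 (plus) and chr14:24490738-24490767 (plus). A run of at least 8 pyrimidines was present in 25 of the 61 members with an entry (41.0%) and in 1906 of 16454 other coding genes (11.6%). The annotated start base was C in 34.4% of these members and in 14.1% of the other genes. An annotated start need not be the one used in thymocytes, so a window without a run says only that these letters are not in it. A run was counted anywhere in the window. In some members, such as Rpl4 with a run of 11, it lay wholly before the annotated start. A window with a run is thus no proof of a TOP tract in the message. The 25 members with a run had a median log2 ratio of -1.04, and 12 of them were lower. The 35 tested members without one had a median of -0.86, and 17 were lower. Both counts are near the 52.6% of all tested members called lower, beside 15.3% of all tested models. The difference in medians was not tested.

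The sorted cells carried the transcripts of their labelled stage. The 10 markers of double-positive thymocytes, among them Cd4, Cd8a and Rag1, summed to 6224 and 6874 FPKM, and none of the 10 passed the test (median log2 ratio -0.10). Of 22 markers of B cells, myeloid cells, thymic epithelium, erythroid cells and NK cells, 20 were found, with a sum of 6.47 and 15.9 FPKM. Itgam, Cd74 and Epcam were lower in the knockout, Foxn1 was listed at 0 in the knockout and Ncr1 at 0 in wild type. Their part in the results was not tested. The genotypes also differed across all models, since 15.3% of 13834 tested models were called lower in the knockout and 1.79% higher, and the median log2 ratio of all tested models was -0.17. All 6 libraries are from bulk populations, so a lower share of a cell type and less RNA per cell cannot be told apart.

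Ribosomal protein genes held a smaller share of the summed FPKM in the knockout. The sums rest on 1 pooled value per genotype and are not adjusted for base composition. How reads with several matches were counted is unknown. The sum of their FPKM was 4067 in the knockout against 9622 in wild type, or 1.37% and 2.67% of the FPKM of all models. The sum was thus 2.37-fold lower, a log2 ratio of -1.24, against -0.28 for the sum of all models. Rps29 was listed at 0 in both genotypes and Rpl39l reached 0.0716 and 0.119 FPKM, and neither was tested by the authors. The other 78 members, 30 small and 48 large, were tested.

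Levels in FPKM differed widely between members. Much of the sequence of 46 members is shared with other genes, as described below, so their levels are uncertain and the spread need not be one of messages. In wild type the levels ran from 0.506 FPKM for Rpl3l, the muscle paralog of Rpl3, to 1038 FPKM for Rpl41, which encodes the smallest ribosomal protein. In the knockout they ran from 0.0481 FPKM for Rpl37 to 449 FPKM for Rpl4, whose protein lines the exit tunnel. The 5 highest in wild type were Rpl41 (1038 FPKM), Rpl4 (626 FPKM), Rps3a (552 FPKM), Rps9 (513 FPKM) and Rpl8 (472 FPKM). The 5 highest in the knockout included Rpl4 (449 FPKM), Rps3a (422 FPKM), Rps3 (164 FPKM) and Rpl41 (158 FPKM). The 5 highest held 33.3% of the members' FPKM and 37.3% in the knockout. Above 100 FPKM there were 27 members in wild type and 11 in the knockout. The ranking was largely kept, with a Spearman correlation of 0.93 between the genotypes across 78 genes of the same table, and Rpl41, Rps9 and Rpl8 left the 5 highest or moved down within them.

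**Figure D1:**
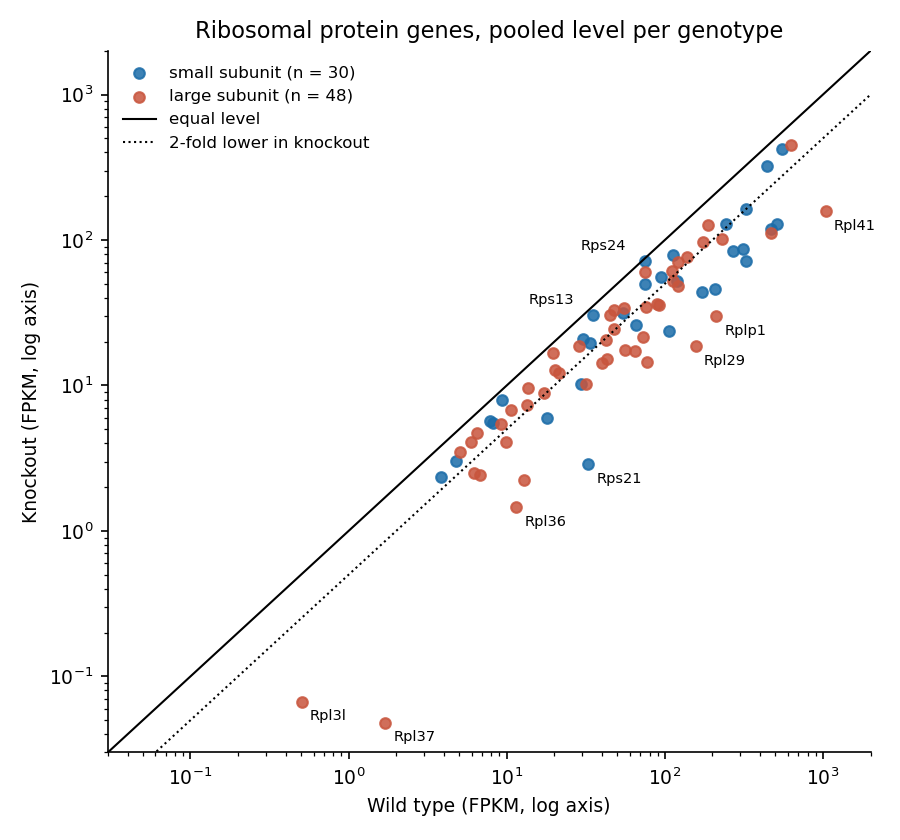
Level of each of the 78 tested ribosomal protein genes in wild type (x axis, FPKM, log scale) and knockout (y axis, FPKM, log scale), 1 pooled value per genotype, small subunit in blue and large subunit in red. All points lie below the solid line of equal level, and 38 lie on or below the dotted line of a 2-fold lower level.

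Of the 78 tested members, 41 were lower in the knockout and 0 were higher. Beside this, 15.3% of all tested models were called lower and 1.79% higher. The knockout value was below the wild type value in each of the 78, against 59.6% of all tested models, and 77 members, all but Rps24, lay below the median of all tested models. The median log2 ratio was -0.97, with quartiles of -1.67 and -0.59 and a median SE of 0.31. A level at least 2-fold lower was found for 38 members and for 16.4% of all tested models. Of the members' 95% intervals, 25 covered 0. At a q under 0.01, 37 members were lower and 0 higher, against 10.1% and 0.745% of all tested models, and at a q under 0.1, 45 were lower and 0 higher, against 18.7% and 2.96%.

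Judged by the SE from the deposited statistic, the members' ratios did not all share a common value. Whether this SE reflects a spread between samples is unknown. The 95% intervals of 52 members covered the members' median of -0.97, while 18 lay wholly below it and 8 wholly above it. Among members with an SE under 1, the log2 ratio ran from -3.51 to -0.06, as the plot of ratios with their intervals shows. The strongest and the weakest differences are described below by subunit.

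**Figure D2:**
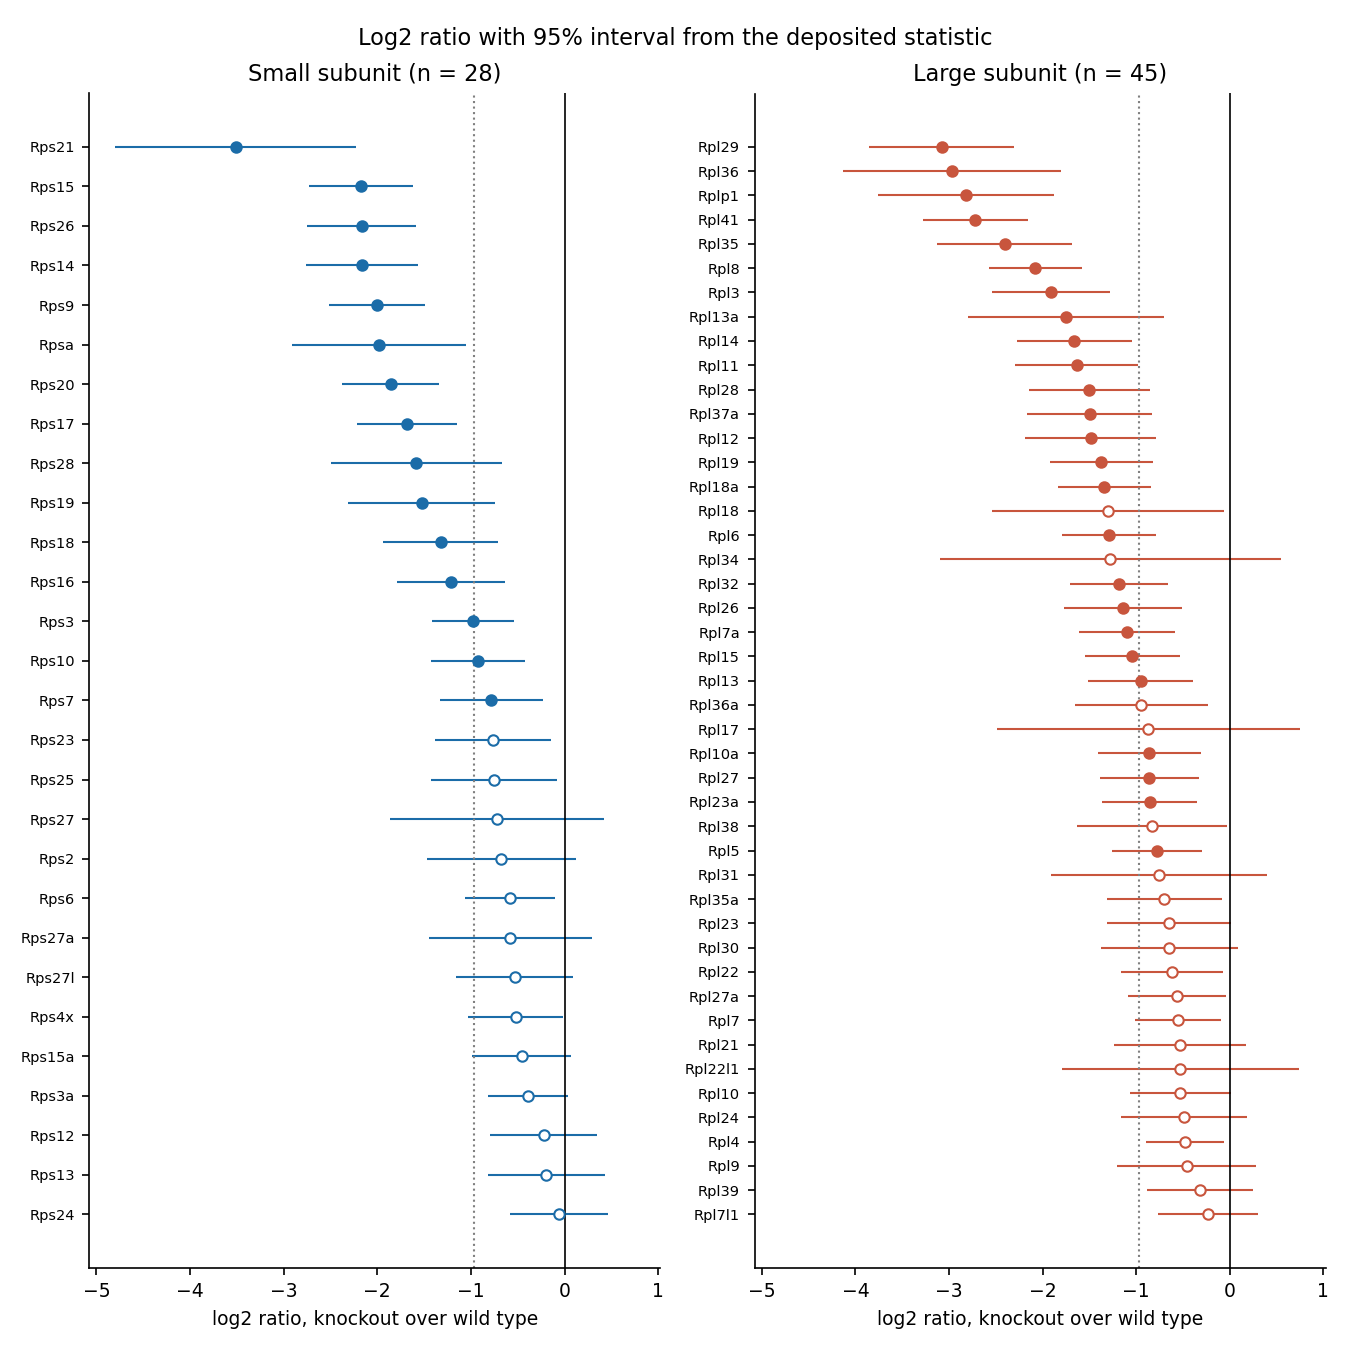
Log2 ratio of knockout over wild type for 73 tested members, points with 95% intervals from the SE implied by the deposited statistic, filled where the deposited q is under 0.05. Rpl37, Rpl3l and Rplp2, each with an SE of at least 1, and members not reported here are left out; the dotted line is the median of all 78 tested members (-0.97), and filled points run from Rps21 at -3.51 to Rpl5 at -0.78.

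In the small subunit 16 of 30 tested members were lower, with a median log2 ratio of -0.85, where 15.3% of all tested models were lower. Rps21 (mm9 chr2:179992083-179993149), a protein of the subunit's outer face, was at 2.87 and 32.7 FPKM, 11.4-fold lower. Its log2 ratio was -3.51 with an SE of 0.66, and its q in the authors' deposited table was 4.66e-06. It was the lowest called ratio of all members. Rps15, a protein of the subunit's head, was at 71.9 and 324 FPKM (log2 ratio -2.17, SE 0.28). Rps26, which contacts the message at its exit site and is another Diamond-Blackfan gene, was at 46.1 and 207 FPKM (-2.16, SE 0.30). Rps14, the gene behind the anaemia of the human 5q- syndrome, was at 23.8 and 106 FPKM (-2.16, SE 0.31). Rps9, which is linked to decoding accuracy, was at 128 and 513 FPKM (4.01-fold lower, SE of the log2 ratio 0.26), and Rpsa, also known as the laminin receptor, was at 43.6 and 172 FPKM (-1.98, SE 0.47). The q of these 5 genes in the authors' deposited table ran from 5.84e-12 for Rps15 to 0.000524 for Rpsa.

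Other called genes of the small subunit lay closer to the median. Rps20 was at 86.5 and 313 FPKM (-1.86, SE 0.27). Rps19, the gene most often mutated in Diamond-Blackfan anaemia, was at 10.3 and 29.5 FPKM (-1.52, SE 0.40). Rps3, which lies at the entry of the message channel, was at 164 and 324 FPKM (-0.98, SE 0.22).

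The upper end of the small subunit held genes with small differences. Rps24 (mm9 chr14:25309902-25315368), also a Diamond-Blackfan gene, had nearly the same level in both genotypes, 72.0 and 75.1 FPKM. Its log2 ratio was -0.06 with a 95% interval from -0.59 to 0.46, and its q in the authors' deposited table was 0.945. Rps13 was at 30.7 and 35.1 FPKM (-0.19, SE 0.32) and Rps12 at 8.01 and 9.35 FPKM (-0.22, SE 0.29). Rps3a, at 422 and 552 FPKM (-0.39, SE 0.22), was the most abundant of the small subunit in both genotypes. Rps15a was at 5.71 and 7.84 FPKM (-0.46, SE 0.27). Rps6, the substrate of the S6 kinases and a readout of growth signalling, was at 49.8 and 74.8 FPKM (-0.59, SE 0.25), and the authors' deposited table gave q = 0.0827. None of these 6 genes passed the test.

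In the large subunit 25 of 48 tested members were lower, with a median log2 ratio of -1.07, where 15.3% of all tested models were lower. Rpl29, a small basic protein of the subunit's surface, was at 18.6 and 157 FPKM (-3.08, SE 0.39). Its q in the authors' deposited table was 2.84e-12. The table held 3 models under this name, and the chromosome 9 model (mm9 chr9:106331865-106333898) was the one kept. A model on chromosome 5 was at 6.16 and 23.6 FPKM and lower as well, and a model on chromosome 1 at 0.684 and 1.99 FPKM did not pass the test. Rpl36 (mm9 chr17:56752856-56753670) was at 1.47 and 11.5 FPKM (-2.97, SE 0.59), and the authors' deposited table gave q = 2.21e-05. Rpl41 (mm9 chr10:127977695-127988460) was at 158 and 1038 FPKM (-2.72, SE 0.29), and the authors' deposited table listed its q as 0. This was the largest difference in FPKM among the members and moved it from the first to the fifth place.

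Proteins around the catalytic centre and the exit tunnel included called and uncalled genes. Rpl3 and Rpl8, both close to the peptidyl transferase centre, were lower, Rpl3 at 17.2 and 64.8 FPKM (-1.91, SE 0.32) and Rpl8 at 112 and 472 FPKM (-2.08, SE 0.25). Rpl35, which lies at the tunnel exit, was at 14.6 and 77.2 FPKM (-2.40, SE 0.37) and was lower too. Rpl4 and Rpl39, which both line the tunnel, did not pass the test, Rpl4 at 449 and 626 FPKM (-0.48, SE 0.21) and Rpl39 at 60.0 and 74.7 FPKM (-0.32, SE 0.29). Rpl10, which is added last and is needed for the subunits to join, was at 33.1 and 47.7 FPKM (-0.53, SE 0.28) and did not pass. Rpl9, at 4.74 and 6.53 FPKM (-0.46, SE 0.38), and Rpl24, at 9.65 and 13.5 FPKM (-0.49, SE 0.35), were further members of the upper end.

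Rplp1 and Rplp2 form the acidic stalk that recruits the elongation factors. Rplp1 (mm9 chr9:61755071-61763450) was at 30.1 and 212 FPKM (-2.82, SE 0.48), and the authors' deposited table gave q = 3.93e-07. Rplp2 was at 2.24 and 12.8 FPKM with a ratio of similar size (-2.51), but its SE was 2.02 and its q in the authors' deposited table was 0.473. Rpl37 had the lowest ratio of all, -5.15, from 0.0481 and 1.70 FPKM, but with an SE of 112 it is not interpreted. Rpl5 and Rpl11, which bind the 5S rRNA and, when free, the p53 inhibitor Mdm2, were both lower, at 70.1 and 120 FPKM (-0.78, SE 0.25) and at 10.3 and 31.9 FPKM (-1.64, SE 0.33).

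The medians of the subunits differed by 0.22 log2 units, with the small subunit nearer to 0. The share called lower was 53.3% of the small and 52.1% of the large subunit, beside 15.3% of all tested models. This is a description with no test. The difference had the opposite sign, -0.21, among the 61 members with a mean of at least 10 FPKM. With the 3 members of an SE of at least 1 left out it was 0.10. The summed level was 2122 and 4744 FPKM for the small subunit and 1945 and 4878 FPKM for the large.

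Abundance was considered next. Of the 61 members with a mean of at least 10 FPKM, 39 were lower and 0 higher, with a median log2 ratio of -1.04, where 19.6% of all tested models at that level were lower and 2.03% higher. Of the 17 tested members below it, 2 (11.8%) were lower and 0 higher, with a median of -0.72, where 11.9% of all tested models under 10 FPKM were lower and 1.59% higher. The share of these low members called lower was thus close to that of other models of low level.

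Paralogs were compared with their founding genes. Rpl22, with a log2 ratio of -0.62 from 18.6 and 28.5 FPKM (q 0.114 per the authors' deposited table), and Rpl22l1, at 4.10 and 5.92 FPKM (-0.53, SE 0.65), did not pass the test. The difference between their log2 ratios was -0.09, with a 95% interval from -1.46 to 1.29, and Rpl22l1 made up 17.2% of the pair in wild type and 18.1% in the knockout. Rpl7, at 128 and 187 FPKM (-0.55, SE 0.24), and Rpl7l1, related to a factor of subunit assembly, at 16.7 and 19.5 FPKM (-0.23, SE 0.27), differed by -0.32 (95% interval -1.03 to 0.38). Rps27l, a target of p53, was more abundant than Rps27 in both genotypes, at 20.9 and 30.3 FPKM against 2.34 and 3.86 FPKM. Rpl3l was at 0.0672 and 0.506 FPKM, with an SE of 3.38, beside Rpl3 at 17.2 and 64.8 FPKM. These intervals were wide, and they do not show that the genes of a pair moved alike.

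Members lie on 19 chromosomes. Rpl41 and Rps26, 73131 bases apart on chromosome 10, were both lower, and their ratios differed by -0.56 (95% interval -1.36 to 0.25, taking the errors as independent). Rps2 and Rpl3l, 9081 bases apart on chromosome 17, allow no comparison, since the SE of Rpl3l is 3.38.

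The ratios followed the base composition of the coding sequence. Of the 26 tested members with the lowest coding GC content, below 50.3%, 3 were lower, with a median log2 ratio of -0.58. Of the 26 in the middle, 17 were lower, with a median of -1.09. Of the 26 with the highest, above 54.2%, 21 were lower, with a median of -1.86. Beside this, 15.3% of all tested models were lower, and shares of other genes by GC content are given below. Across the 78 members the Spearman correlation of the log2 ratio with coding GC content was -0.72 (Pearson -0.59), and across 8966 other coding genes it was -0.71. These are descriptions across genes of the same 6 libraries, which are not independent. The 3 called members of low GC content were Rpl5 (45.9%), Rps20 (48.6%) and Rps7 (49.4%). Rps24, with the highest ratio of all members, had a coding GC content of 46.0%.

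**Figure D3:**
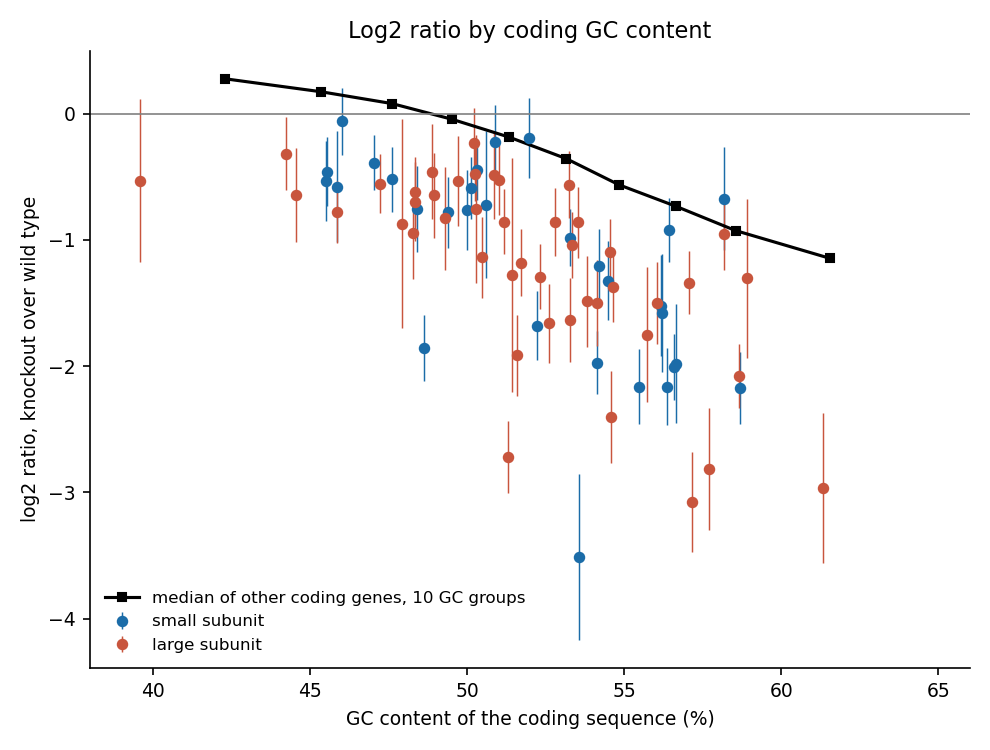
Log2 ratio of knockout over wild type (y axis, bars 1 SE) against GC content of the coding sequence (x axis, percent) for 75 tested members with an SE under 1, small subunit in blue and large subunit in red. The black line joins the medians of other coding genes in 10 groups of GC content, from 0.28 in the lowest to -1.15 in the highest group; nearly all members lie below it.

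Members were then set beside other coding genes of like base composition. In 10 groups of coding GC content, 75 of 76 members with a mean of at least 1 FPKM lay below the median of the other genes of their group, and with the GC content of the whole reference transcript 69 of 75 did. The counts called lower differed by group. Up to 50.4% coding GC, and above the lowest group, 3 groups had 1 of 7, 1 of 9 and 1 of 11 members lower, beside 0.446%, 1.12% and 3.25% of the other genes. From 50.4% to 54.1%, 2 groups had 6 of 12 and 9 of 10 members lower, beside 5.83% and 13.8%. From 54.1% to 59.7%, 3 groups had 8 of 8, 10 of 11 and 4 of 6 members lower, beside 24.8%, 37.8% and 46.8%. The lowest and the highest group held 1 member each. After removal of a smooth trend with GC content and length of the transcript across 9002 coding genes, 13 of 75 members were lower and 0 higher at an adjusted p under 0.05, with 0.989% of all fitted genes lower and 0.833% higher. Rpl37 and Rpl3l were too low for either fit, and Rps20 was left out of the transcript fit for its long isoform. The members' median was then -0.35, and 58 were below 0. With GC content and length of the coding sequence across 9042 genes, 18 of 76 were lower and 0 higher, with 1.56% of all fitted genes lower and 3.15% higher. The members' median was -0.56, and 70 were below 0.

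A set of 10 members was lower under both trends, among them Rpl29, Rpl3, Rpl35, Rpl41, Rpl5, Rpl6, Rps21, Rps26 and Rps9. Of all fitted genes 0.989% were lower under the transcript trend and 1.56% under the coding trend. The share under both is not given. Among these named genes, the share of sequence found in no other gene, described below, ran from 4.91% for Rpl35 to 73.6% for Rps21. Rpl5 had 6.16% and Rpl3 14.4%, so their levels and that of Rpl35 are uncertain. Rpl6 was at 36.6 and 89.5 FPKM, with a log2 ratio of -1.29 (SE 0.26). Rpl36 and Rps19 were among the genes that passed the deposited test but neither of the trend fits.

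Length of the message gave no steady order. Short was taken as a reference transcript below the members' median of 814.5 bases. Of 39 short members 21 were lower, with a median log2 ratio of -1.14, and of 39 longer members 20 were lower, with a median of -0.92. The difference of -0.22 became 0.33 once the transcript trend was removed and -0.06 with the coding trend. Within the small subunit, 10 of 16 short and 6 of 14 longer members were lower, with medians of -1.55 and -0.76. In the large subunit the order was the other way, with 11 of 23 short and 14 of 25 longer members lower and medians of -0.94 and -1.29. The median coding GC content of short and longer members was 53.9% and 49.7% in the small and 51.2% and 53.3% in the large subunit. Whether the order within a subunit goes beyond base composition was not tested. By coding length, 18 of 39 members below the median of 457.5 bases and 23 of 39 others were lower. Beside all these counts, 15.3% of all tested models were lower.

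The shortest and the longest messages each included called and uncalled genes. Rps27 (345 bases) was at 2.34 and 3.86 FPKM (-0.72, SE 0.58) and Rpl38 (364 bases) at 12.1 and 21.5 FPKM (-0.83, SE 0.41), and neither passed the test, while Rpl36 (383 bases) was lower (-2.97). Rps29 (390 bases) was the gene listed at 0. Among the longest, Rps15a (5179 bases), Rpl7l1 (2606 bases) and Rpl22 (2051 bases) did not pass, and Rps20 (3706 bases) was lower. The long reference isoforms of Rps15a and Rps20 carry 3′ UTRs of 4728 and 3167 bases and may not be the ones expressed, with a coding length of 393 and 360 bases.

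**Figure D4:**
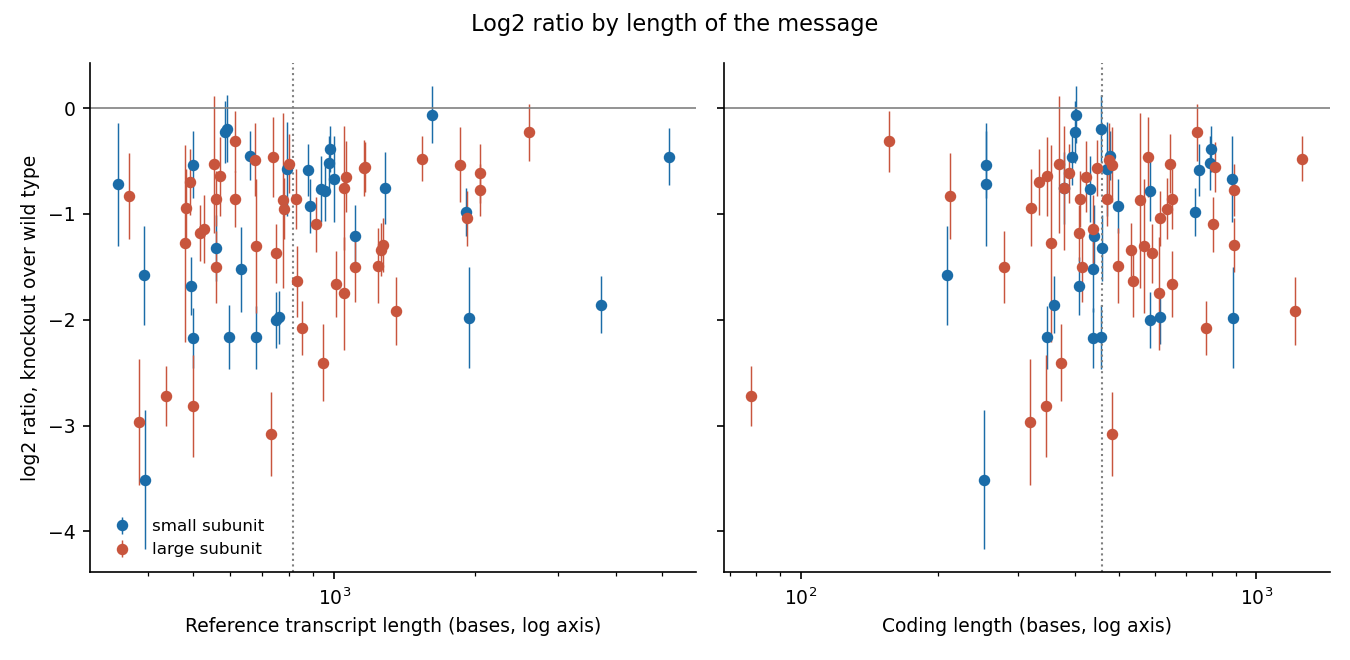
Log2 ratio of knockout over wild type (y axis, bars 1 SE) against reference transcript length (left) and coding length (right), in bases on log axes, for 75 tested members with an SE under 1; dotted lines mark the medians of 814.5 and 457.5 bases. Ratios below -1 and above -0.5 occur on both sides of each line, and the 5 lowest ratios of the left panel lie on the short side.

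Ribosomal protein genes have many processed copies, so their reads can match several places. Each reference transcript was broken into words of 50 bases, and the share found in no transcript of another GENCODE gene on either strand was counted. Its median was 46.5% in the 80 members and 99.98% in all 21842 coding genes, and 46 members lay under 50%, as did 9.68% of coding genes. Rps27 had 1.35%, Rpl35 4.91% and Rpl9 6.68% of such words, while Rps3 had 97.0% and Rpl8 92.1%. How the authors' counting treated reads with several matches is not named in these sources, so the levels of members with a low share are uncertain.

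The ratios did not follow this share in one direction. Of 22 members under 25%, 11 were lower (median log2 ratio -0.86). Between 25% and 50% it was 12 of 24 (-0.89), between 50% and 75% 14 of 20 (-1.50), and from 75% upward 4 of 12 (-0.58). Of all tested models 15.3% were lower. Among members nearly free of shared words, Rps3 and Rpl8 were lower, at 164 and 324 FPKM and at 112 and 472 FPKM. Rpl22 (94.8%), Rps15a (93.6%) and Rpl7l1 (90.8%) were among those that did not pass. Rps27l, the p53 target, had a share of 77.6%, so its excess over Rps27 is measured on unequal ground.

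**Figure D5:**
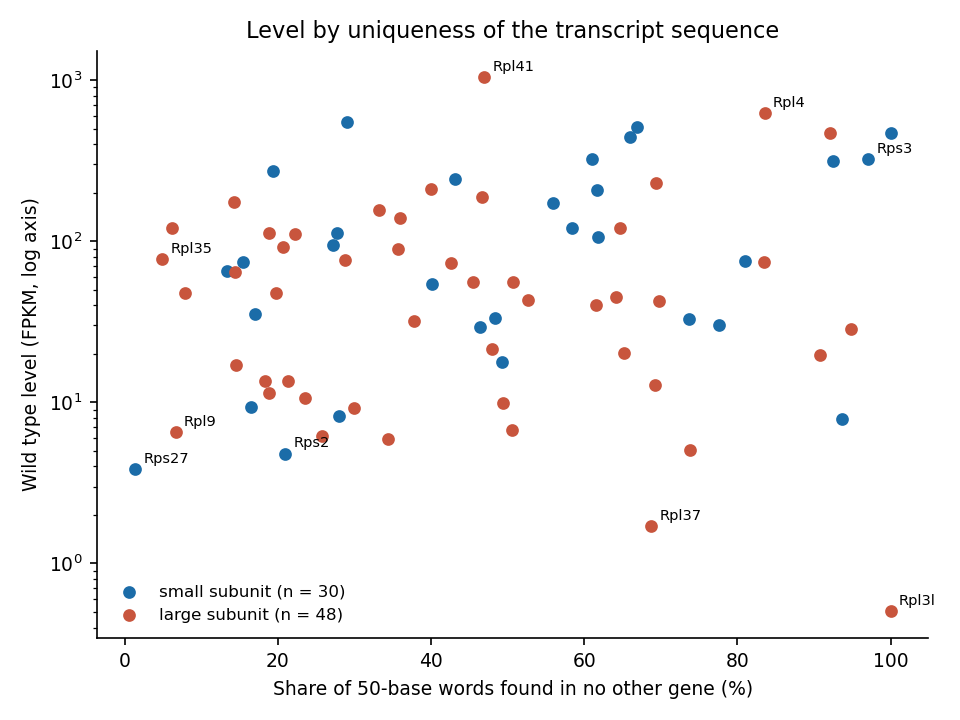
Wild type level (y axis, FPKM, log scale) against the share of 50-base words of the reference transcript found in no other gene (x axis, percent) for the 78 tested members, small subunit in blue and large subunit in red. Genes of more than 100 FPKM occur from under 10% to 100%, and Rps27, the least unique at 1.35%, stood at 3.86 FPKM.

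Ribosome components outside the name rule were read as a companion list. Fau encodes a ribosomal protein fused to a ubiquitin-like protein, Gnb2l1 (Rack1) encodes a scaffold on the small subunit, and Rpl36al encodes a twin of Rpl36a. These 3 genes were lower, as were 15.3% of all tested models. Fau was at 52.9 and 90.3 FPKM (-0.77, SE 0.28), Gnb2l1 at 206 and 559 FPKM (-1.44, SE 0.24) and Rpl36al at 99.5 and 174 FPKM (-0.81, SE 0.26). Rps27a, a ubiquitin fusion that is a member by name, did not pass the test, at 5.51 and 8.22 FPKM (-0.58, SE 0.44).

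Genes that build ribosomes were also listed. Of 35 assembly and RNA polymerase I genes 12 (34.3%) were lower and 0 higher, beside 15.3% and 1.79% of all tested models, with a median log2 ratio of -0.57. Fbl, the methyltransferase of box C/D particles, was at 2.10 and 6.28 FPKM (-1.58, SE 0.43), and Eif6, which keeps the large subunit from joining too early, was at 7.80 and 22.6 FPKM (-1.53, SE 0.33). The nucleolar proteins Ncl, at 83.5 and 81.4 FPKM (0.04, SE 0.21), and Npm1, at 28.5 and 31.7 FPKM (-0.15, SE 0.32), did not pass. These genes differ in coding GC content, 57.4% for Fbl and 56.9% for Eif6, but 44.7% for Ncl and 42.1% for Npm1. Of other coding genes, 37.8% were lower in the GC group of Fbl and Eif6 and 0.446% in that of Ncl. Rrs1, at 64.1%, did not pass. Differences between these lists and the ribosomal protein genes were not tested.

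Other messages of the TOP class were read in the same way. Of 14, Eef2, Eef1b2 and Eef1d were lower and 0 were higher, with a median log2 ratio of -0.50. This is 21.4% called lower, near the 15.3% of all tested models and the 19.6% of those with at least 10 FPKM, so the count is no result about the class. All 14 ratios were below 0, against 59.6% of all tested models. The median coding GC content of the 14 was 49.7%. In the GC group around that value, 3.25% of other coding genes were lower, with a median log2 ratio of -0.04. Whether the class differs from genes of like base composition was not tested. Eef2, the translocation factor, was at 354 and 1237 FPKM (-1.81, SE 0.45). Eef1a1, which delivers aminoacyl-tRNA, was at 947 and 1170 FPKM (-0.30, SE 0.21) and did not pass. Pabpc1, at 163 and 171 FPKM (-0.06, SE 0.22), and Eif3e, at 43.1 and 43.2 FPKM, had nearly equal levels.

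Free ribosomal proteins can release p53 from Mdm2, and p53 genes were read for that reason. Of 8, a list too short to set against the share of all models, Bbc3 was lower, at 1.17 and 3.92 FPKM (-1.75, SE 0.38), and Ccng1 was higher, at 43.0 and 26.3 FPKM (0.71, SE 0.23). Mdm2 (45.5 and 44.6 FPKM), Cdkn1a (0.323 and 0.607 FPKM) and Trp53 (35.7 and 44.6 FPKM) did not pass the test. The coding GC content was 72.0% for Bbc3 and 43.4% for Ccng1. Other coding genes had a median log2 ratio of -1.15, with 57.3% lower, in the highest GC group and 0.28 in the lowest. Whether Bbc3 and Ccng1 differ from genes of like base composition was not tested.

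The ribosome of mitochondria, built from a separate set of nuclear genes, served as a comparison. Of 74 mitochondrial ribosomal protein genes 24 (32.4%) were lower and 0 higher, beside 15.3% and 1.79% of all tested models, with a median log2 ratio of -0.73. Their summed level was 1090 and 1753 FPKM. The lowest called gene was Mrps12, at 4.05 and 19.7 FPKM (-2.28, SE 0.37). A pyrimidine run of at least 8 bases in the window around the annotated start was found in 9 of 65 of them (13.8%). The difference between cytosolic and mitochondrial genes was not tested.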

How the data were processed

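RNA of 6 libraries, 3 per genotype, was aligned with TopHat2 to mm9 per the submitters' processing notes. The sources used here do not name the counting tool, the annotation or the treatment of reads with several matches. Per the file headers, the authors deposited 1 FPKM value per genotype, a log2 ratio, a test statistic (a score), a p-value and a q-value. FPKM divides by library size and length but not by base composition. The deposited p-values were checked to be normal tails of the statistic (largest difference 2.82e-06) and the q-values to be Benjamini-Hochberg adjusted over the 13834 tested models (1.89e-06). No test was run on libraries. Whether the deposited p-values reflect a spread between samples is unknown, and that spread may be technical. The sign of the log2 ratio was reversed, to knockout over wild type. The SE is its size divided by the size of the statistic, and 95% intervals are 1.96 SE to each side.

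GC content, lengths and UTRs came from 1 GENCODE M21 (GRCm38) transcript per gene, matched for 80 members. Trends were fitted to genes averaging 1 FPKM or more by robust regression on cubic splines with 5 pieces (statsmodels 0.14.6, patsy 1.0.2), after tests on simulated data. The residual was divided by the SE and adjusted by Benjamini-Hochberg. No coordinates were converted between builds. Full values were given for the 6 lowest and 6 highest ratios of each subunit, the stalk genes, paralog pairs and the shortest and longest transcripts. Other members were named after their values were seen. Members, gene lists and tests were chosen with earlier results of these data known. A few genes are counted in the totals but not reported here by name.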

Additional observations from a re-analysis of the deposited data

How the results depend on the processing

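No paired analysis was possible because the table holds 1 value per genotype, and for the same reason no replicate could be left out. The count of lower members, 41, stayed between 37 and 45 under 6 alternatives: a q under 0.01 or 0.1, another choice of model, single-name rows, a mean of at least 10 FPKM, and an SE under 1. It was 13 with the transcript trend removed and 18 with the coding trend removed. The median log2 ratio stayed between -1.04 and -0.80 under 6 alternatives, the last of them centred on all tested models, which shifts each ratio by 0.17, and was -0.35 and -0.56 with the transcript and coding trends removed. No member was called higher under 8 alternatives. At least 10 FPKM turned the small minus large difference to -0.21, and its 7 other values lay between 0.04 and 0.29. Removal of the transcript trend turned the short minus longer difference to 0.33, and its 10 other values lay between -0.49 and -0.06. The cause was not tested. The coding trend, coding length, the SE limit and the span limit were added after seeing the data. Depth is unknown, so the precision rests on the deposited statistic alone.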
